A study of Caenorhabditis elegans with 4 samples.

Results

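RNA polymerase II (Pol II) sites on chromosome V of *Caenorhabditis elegans* are described here: the 218 lines of the authors' combined list of binding sites whose chromosome field reads V, out of 1967 lines in all. They were chosen by chromosome alone, and all 218 are kept. The list comes from chromatin immunoprecipitation and sequencing (ChIP-seq) of fed first-stage (L1) larvae of N2, the wild-type laboratory strain, hermaphrodites grown at 20 °C. The samples are 2 of Pol II ChIP DNA, taken with the mouse monoclonal antibody 8WG16, and 2 of input DNA, which is crosslinked chromatin without immunoprecipitation. Whole larvae were crosslinked with 2% formaldehyde, so a site is an average over all tissues of the animal. The list gives 1 q-value per site for ChIP against input and no value for a single sample. No value below therefore carries an error between replicates, and no test between conditions was possible. Sequencing depth is unknown.

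Pol II transcribes protein-coding genes and many small nuclear RNA genes. The tail of its largest subunit, AMA-1 in the worm, carries a repeated heptapeptide, which 8WG16 recognizes. ChIP signal for Pol II can sit at a promoter, along a transcribed gene, or past its end, so a single broad site can hold more than 1 kind of occupancy. The autosomes of *C. elegans* have a gene-dense centre with little recombination and 2 arms that are rich in repeats and recombine more often. Chromosome V is the longest chromosome and is known for large families of chemoreceptor genes, many of them on its arms and active in few cells. It also carries the tandem array of 5S ribosomal RNA and SL1 spliced leader genes. Coordinates below are those of the WormBase WS180 build. No annotation of that build was used, so which genes lie under a site was not analysed here, and no site sequence is shown.

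The sites of chromosome V were gathered in its centre and thinned out evenly to both sides. They spanned 20.7 Mb, from the first site at 122839 to the last site's end at 20843860. The span was cut into 5 zones of equal length, numbered 1 to 5 from left to right. They held 17, 47, 92, 47 and 15 sites. Zone 3, in the middle, from 8411248 to 12555452, thus held 42.2% of the sites (exact 95% interval 35.6 to 49.1%). At the ends, zone 1 held 7.80% (4.61 to 12.2%) and zone 5 held 6.88% (3.90 to 11.1%). Those intervals cover counting error only, and they treat sites as independent, which neighbouring sites are not. The density was 22.2 sites per Mb in zone 3, 11.3 in each of zones 2 and 4, 4.10 in zone 1 and 3.62 in zone 5. The left and right sides of the chromosome were thus close to mirror images in number.

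**Figure D1:**
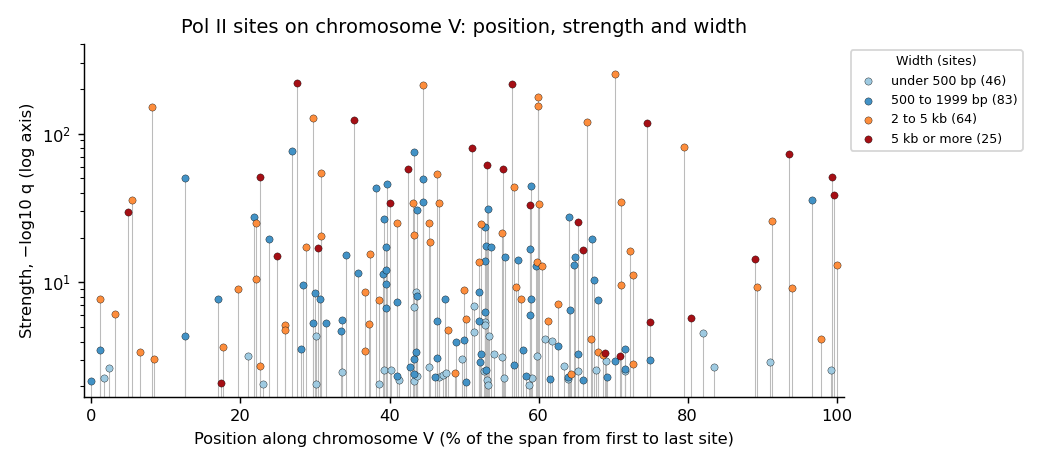
Each point is 1 of the 218 sites on chromosome V, placed by its midpoint in percent of the span from the first to the last site (x axis) and by its strength, the −log10 of the authors' q-value (y axis, log scale). Colour gives the width class with its number of sites. Points crowd between 40% and 60% of the span, and strong and wide sites also stand in the sparse outer parts.

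Chromosomes II, III, IV and X serve as background here. Chromosome I, with 861 of the 1967 sites, was left out of it, and its layout was not analysed here. On II, III, IV and X the same 5 zones gave other shapes. From left to right they held 10, 35, 77, 76 and 33 sites on chromosome II, with the crowded part shifted to the right. They held 18, 36, 79, 47 and 28 on III and 57, 58, 97, 78 and 21 on IV, which was full on its left arm. On X they held 25, 37, 27, 27 and 22, with no peak in zone 3. The outer zones, 1 and 5, together held 14.7% of the sites on V, against 18.6% on II and 22.1% on III, and 25.1% on IV and 34.1% on X. Their density was 3.86 sites per Mb on V and 7.07 on both II and X, with 8.42 on III and 11.5 on IV. The inner zones of V, 2 to 4, held 15 sites per Mb, between X at 9.13 and III at 19.8. These values stand side by side as a description. The spans begin at the first site, which lies at 1010457 on X and at 122839 or less on II, III, IV and V.

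In 10 equal parts of the span, both ends of chromosome V had slightly more sites than the part just inside them. The parts held 11, 6, 19, 28, 41, 51, 32, 15, 5 and 10 sites from left to right. Part 6, from 10483350 to 12555452, was the fullest at 24.6 sites per Mb, and part 9, from 16699657 to 18771758, the emptiest at 2.41. At the left end, 5.05% of sites lay in part 1 (exact 95% interval 2.55 to 8.85%) and 2.75% in part 2 (1.02 to 5.89%). At the right end, part 10 held 4.59% (2.22 to 8.27%) and part 9 held 2.29% (0.749 to 5.27%). Both pairs of intervals overlap, and whether this upturn exceeds counting error was not tested. It was not particular to V. Chromosome III had it at both ends, with 12 and 6 sites in parts 1 and 2 and 9 and 19 in parts 9 and 10. At the right end alone it was seen on II (13 and 20 sites in parts 9 and 10) and X (8 and 14). On IV it was seen at neither end.

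**Figure D2:**
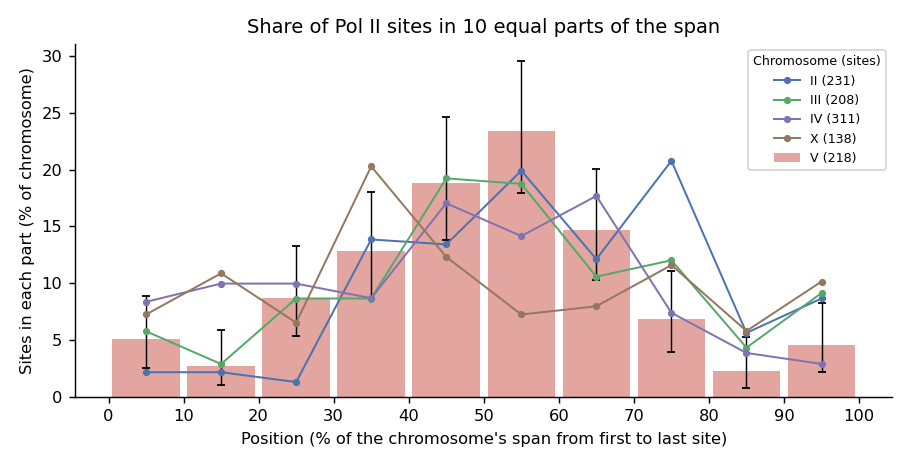
Share of a chromosome's sites (y axis, percent) in each of 10 equal parts of its span from first to last site (x axis). Bars are chromosome V with exact 95% intervals of counting error, and lines are chromosomes II, III, IV and X. On V parts 5 and 6 hold 18.8% and 23.4% of the sites and part 9 holds 2.29%.

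Single megabases showed the same rise and fall. The 10 Mb from 5000001 to 15000000 held between 7 and 27 sites per megabase, with 27 from 9000001 to 10000000 and 25 from 11000001 to 12000000. The megabase with most covered bases was the second of these, at 46.0 kb. To the left, the megabases from 2000001 to 3000000 and from 3000001 to 4000000 held 2 and 3 sites. To the right, the 3 megabases from 16000001 to 19000000 held 2 sites each, and the one from 17000001 to 18000000 had 0.634 kb under sites.

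The arms of chromosome V were broken by long stretches with no site. The longest ran from 17421679 to 18572768, a length of 1.15 Mb. It lay between a 227 bp site of q-value 0.00207 on its left and a 5.02 kb site of q-value 4.50e-15 on its right. The second longest, 0.926 Mb from 15666225 to 16592118, lay in zone 4 and ended at a 4.36 kb site with a q-value of 1.62e-82. Next came 0.900 Mb from 2733080 to 3633432 and 0.854 Mb from 1876228 to 2730080. These 2 left-arm stretches are parted by a pair of sites 368 bp from each other, of 1.61 kb (q = 6.74e-51) and 1.02 kb (q = 4.73e-05). The fifth was 0.545 Mb from 19612986 to 20157642.

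Of the 10 longest stretches, 5 lay to the left of zone 3 and 5 to the right, and in 7 of them both flanking sites were in the outer zones. The shortest of the 10 was 372 kb, against 261 kb for the longest stretch between 2 sites of zone 3. The 10 together made up 6.41 Mb, or 30.9% of the span. A long sparse region reached from zone 4 into zone 5: the 2.91 Mb from 15666225 to 18572768 held 4 sites that covered 14.6 kb. On the left, the 2.31 Mb from 1876228 to 4186248 held 5 sites that covered 12.9 kb.

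By share of gaps and of span, long gaps on chromosome V lay between the values of II, III and IV and those of X. Gaps of at least 200 kb numbered 25 of 217 on V, or 11.5%, and took up 50% of the span. The same figures were 6.52% of gaps and 39.5% of the span on II, 8.21% and 38.1% on III, 5.48% and 31.6% on IV, and 19.7% and 63.3% on X. V had 5 gaps of at least 500 kb. II had 4 of them, III had 2, IV had 1 and X had 8. The longest single gaps of II, III, IV and X were 0.787, 0.524, 0.651 and 0.656 Mb, each shorter than the 1.15 Mb on V. Gaps are counted between sites only, so the stretch before the first site of X, which starts at 1010457, is left out. The median gap was 42.8 kb on V, with quartiles of 6.08 and 113 kb. On II, III and IV it lay from 21.0 to 26.5 kb, and X had 55.9 kb. Within V, the median gap was 184 kb in the outer zones (30 gaps), 34.7 kb in the inner zones (185 gaps) and 17.9 kb in zone 3 alone (91 gaps).

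**Figure D3:**
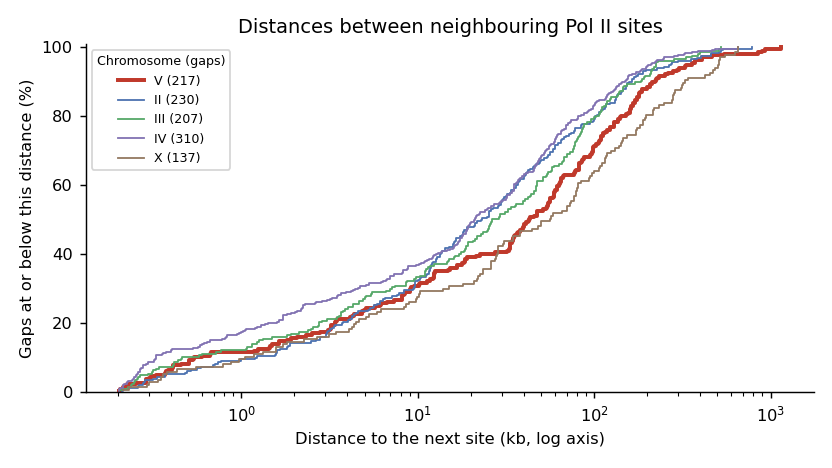
Cumulative share of gaps (y axis, percent) at or below a given distance to the next site (x axis, kb, log scale), 1 line per chromosome. From about 50 to 500 kb the line of V runs between those of II, III and IV on its left and X on its right, with medians of 42.8 kb on V and 55.9 kb on X, and it reaches furthest right, to 1151 kb.

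Short gaps were about as frequent on V as on II, III, IV and X: 30.9% of its gaps were under 10 kb, against 27.7% on X and 32.2 to 36.8% on II, III and IV. When sites under 10 kb apart are counted as a run, the 218 sites formed 151 runs. Of these, 109 were single sites, 29 were pairs and 13 held 3 or more sites. All 13 lay in the inner zones, 9 of them in zone 3. The inner zones held 85.3% of all sites of V and zone 3 held 42.2%. Runs joined at a fixed distance form more readily where sites are dense, so this partly restates the density. The outer zones had 2 gaps under 10 kb. Sites in runs of 3 or more were 23.4% of V and 24.7% of II, with 31.3% of III, 31.5% of IV and 9.42% of X.

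The run with most sites held 8, more than the 4 to 7 of the largest runs on II, III, IV and X. It reached from 11045269 to 11082984, a length of 37.7 kb, and its sites were narrow, from 403 to 1480 bp with a median of 556 bp. They covered 14.1% of the run. Its strongest member, from 11075453 to 11076932, had a q-value of 3.19e-24 and ranked 296th in the whole list. None of the 8 was among the top 197 of the list by q-value, which are 10% of the whole list and 11.7% of the sites on II, III, IV and X. Of the 8, 6 were among the top 983, which are 50% of the whole list and 51.9% of the sites on II, III, IV and X.

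The second run held 7 sites between 9074225 and 9097640. Its strongest member was a narrow site of 678 bp, from 9088612 to 9089289, with a q-value of 2.63e-76 and rank 90. A site of 3.25 kb (q = 1.29e-34) opened the run and one of 2.56 kb (q = 1.83e-21) closed it. It also held a site of a single base, at 9086479 (q = 0.00653), that lay 202 bp from a 293 bp neighbour with the lower q-value of 1.42e-07. Some 62 kb further right, 5 sites of 296 to 803 bp formed a run from 9159198 to 9175556, led by a 695 bp site with a q-value of 1.88e-31.

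A run of 4 sites was more compact. It reached from 8300917 to 8306731, and its sites of 780, 1251, 1268 and 1085 bp covered 75.4% of its 5.82 kb. Their q-values were 1.89e-07, 5.89e-18, 1.98e-10 and 7.45e-13, so all 4 lay in the top 983. The gaps between them were 330 to 596 bp.

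**Figure D4:**
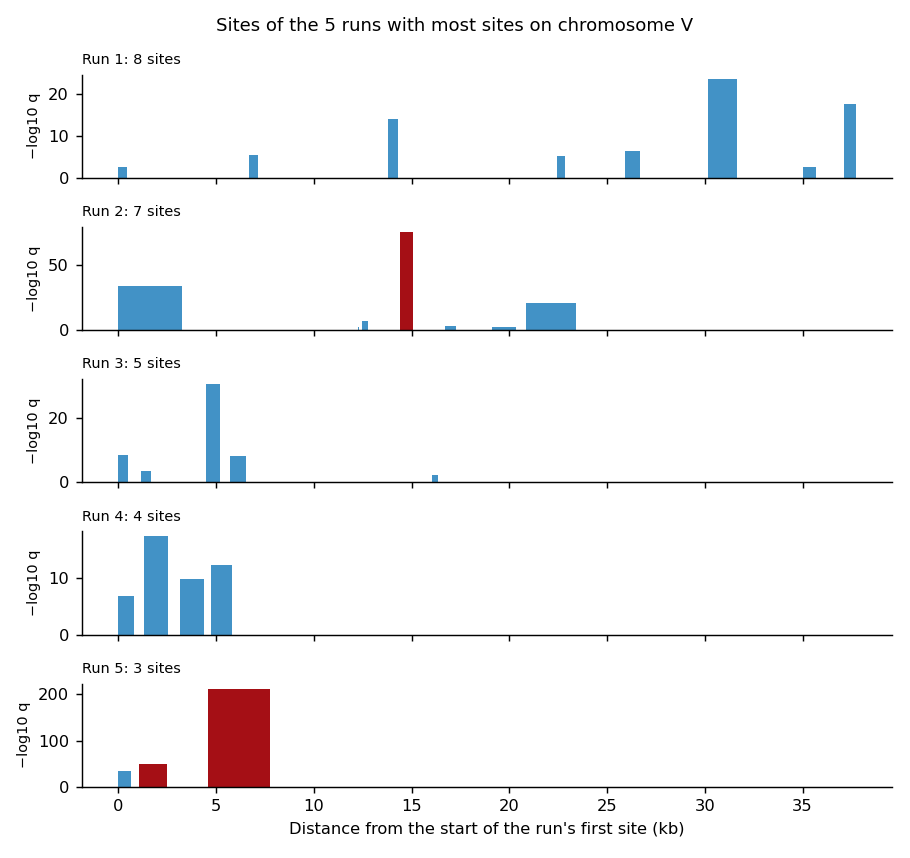
The 5 runs with most sites, each in a panel of its own (the bottom panel is the leftmost of the runs with 3 sites). Bars start at a site's distance from the start of its run (x axis, kb), have the site's width, except that sites under 60 bp are drawn 60 bp wide, and rise to its −log10 q (y axis, a scale per panel); dark red marks the top 197 of the list. The first run has 8 narrow sites spread over 37.7 kb, and the fourth has 4 sites that cover 75.4% of 5.82 kb.

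Among the 67 gaps under 10 kb on V, 2 joined a pair of sites that were both in the top 197. The top 197 held 13.8% of all sites of V, and whether the count of pairs departs from that share was not tested. The first pair lay in the run from 9338268 to 9346029. There a 1.47 kb site (9339304 to 9340774, q = 1.62e-50, rank 149) was followed after 2.07 kb by a 3.19 kb site (9342845 to 9346029, q = 2.01e-213, rank 15), and a 652 bp site with a q-value of 1.18e-35 stood on their left. The second pair was a site of 2.00 kb (12548575 to 12550577, q = 7.65e-153, rank 28) and one of 2.51 kb (12551247 to 12553755, q = 4.43e-176, rank 24), 669 bp apart. A further site of 4.37 kb followed after another 404 bp, from 12554160 to 12558532, with a q-value of 4.10e-34 and rank 217. Such pairs numbered 1 among 74 gaps under 10 kb on II and 4 among 114 on IV. There were none on III (69 gaps) or X (38 gaps).

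Strong sites had a near neighbour less often than other sites, on V as on II, III, IV and X. Of the 30 sites of V in the top 197, 12 (40.0%) had a neighbour under 10 kb away, against 97 of the other 188 (51.6%). On II, III, IV and X the top 197 sites had such a neighbour in 45.2, 43.5, 53.1 and 44.4% of cases. The other sites there had one in 53.5, 54.6, 59.9 and 52.5%. The direction was thus not particular to V, and it was not tested. Across the 217 pairs of neighbours on V, the rank correlation of their strengths was −0.12 (Spearman's rho). On II, III, IV and X it lay between −0.05 and 0.03. Each site enters 2 pairs, so these values are given without a test. Of the 25 gaps under 1 kb, 23 (92%) had at least 1 flanking site in the top 983, against 87.1% of all 217 gaps of V. At least 1 flank in the top 197 was found for 8 of the 25 (32%), against 25.8% of all, so both shares were near those of gaps of any length.

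The strongest sites made up a share of V that was, within counting error, like that of II, III, IV and X and above that of chromosome I. The share of its sites in the top 197 was 13.8% (30 of 218, exact 95% interval 9.48 to 19.1%). The same share was 10% over the whole list and 11.7% over II, III, IV and X together, both inside that interval. On chromosome I it was 7.32% (63 of 861), below the interval. On V, 11 sites had q-values below 1e-100, or 5.05% (2.55 to 8.85%), against 3.25% of the whole list and 3.94% of II, III, IV and X and 2.09% of chromosome I (18 of 861). The median q-value was 9.77e-08 on V. Among the 4 background chromosomes it ran from 1.53e-07 on X through 1.32e-06 on III and 8.39e-06 on IV to 2.01e-05 on II. In the order of the whole list, V had 129 sites in the top 983 and 89 below. That share of 59.2% (exact 95% interval 52.3 to 65.8%) was above the 50% of the whole list and the 51.9% of II, III, IV and X together, where single chromosomes ran from 47.6 to 57.2%. The interval treats sites as independent, and no test was run. In 10 equal steps of the list from strongest to weakest, it held 30, 35, 24, 24, 16, 14, 21, 16, 25 and 13 sites.

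The strongest site on V lay in zone 4, from 14684572 to 14689189. It was 4.62 kb wide, had a q-value of 3.35e-253 and had rank 5 in the whole list. A weak 1.22 kb site (q = 0.00111) stood 408 bp to its left. The second strongest, from 5838522 to 5847065, was 8.54 kb wide with a q-value of 3.00e-220, and its nearest neighbour was 113 kb away. The third, from 11817162 to 11826106, was 8.95 kb wide with a q-value of 1.77e-217. These 3 sites thus lay in zones 4, 2 and 3.

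The outer zones also held strong sites. The strongest of zone 1 was a 2.41 kb site from 1803965 to 1806372, with a q-value of 2.08e-151 and rank 29. In zone 5 it was a 7.54 kb site from 19519498 to 19527041, with a q-value of 2.41e-73 and rank 95. Of the 20 strongest sites of V, 1 lay in zone 1, 5 in zone 2, 9 in zone 3, 4 in zone 4 and 1 in zone 5. Of all sites of V these zones held 7.80, 21.6, 42.2, 21.6 and 6.88%, so the split was close to that of all sites. The longest stretch between neighbouring top 197 sites was 2.92 Mb, from 16596478 to 19519498.

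The 20 strongest sites ranged from 0.678 to 9.98 kb in width, with a median of 4.49 kb, and from rank 5 to rank 128. After the sites already named they were, in order of q-value, a 2.68 kb site starting at 6276029 (q = 1.49e-127), a 6.32 kb site at 7431660 (q = 1.08e-123), a 2.38 kb site at 13907389 (q = 1.43e-120) and a 6.36 kb site at 15564016 (q = 8.10e-119). The q-values then dropped to 1.62e-82 for the site at 16592119 that bounds the second longest gap. A 9.98 kb site at 10711600 (q = 6.99e-81) and a 1.88 kb site at 5700003 (q = 1.56e-77) came next. The last ones, with q-values down to 3.81e-55, were sites of 6.57 kb at 11118080, 6.87 kb at 8933431, 6.16 kb at 11570348 and 2.94 kb at 6514822. In 4 of these 20 the nearest neighbour was at least 100 kb away, and in 7 it was under 10 kb away.

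Sites on V had a median width of 1491 bp (95% interval from order statistics 1210 to 1912 bp, n = 218), with quartiles of 544 and 3135 bp. For comparison, II had a median of 970 bp, III of 1259 bp, IV of 1077 bp and X of 1661 bp. By class, V had 16 sites under 200 bp, 30 from 200 bp to below 500 bp, 40 from there to below 1 kb, 43 from 1 kb to below 2 kb, 64 from 2 kb to below 5 kb and 25 of 5 kb or more. The last class made up 11.5% of V, against 5.19% of II, 10.6% of III, 4.50% of IV and 13.8% of X. Together the sites covered 490 kb, or 2.36% of the span.

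Wider sites had lower q-values, with a rank correlation (Spearman's rho) between width and strength of 0.60 over the 218 sites and of 0.60 to 0.71 on II, III, IV and X. A q-value falls with the width of a site at equal enrichment, so both measures share a part and no p is given. The median −log10 q rose from 2.33 for sites under 200 bp to 5.39 from 500 bp to below 1 kb, 12.0 from 2 kb to below 5 kb and 34.3 for 5 kb or more. The median width was 3994 bp among the 30 top 197 sites of V and 1225 bp in its other sites.

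**Figure D5:**
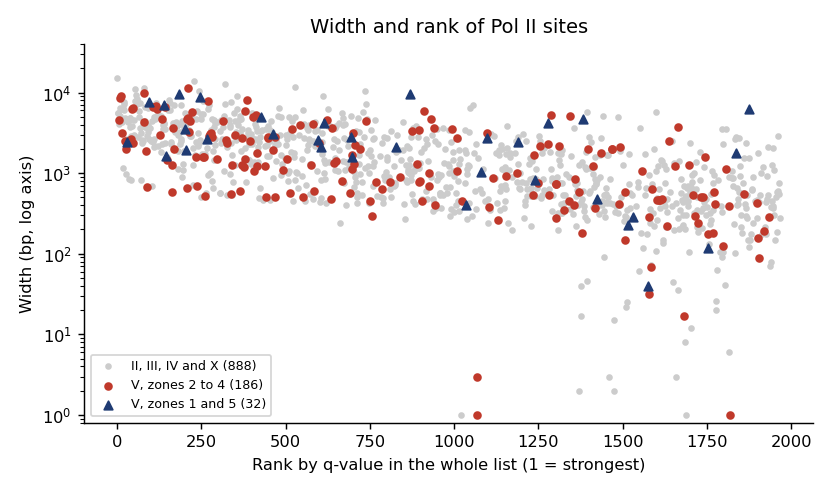
Width (y axis, bp, log scale) against rank by q-value in the whole list (x axis, 1 is the strongest). Grey points are chromosomes II, III, IV and X, red points the inner zones of V and blue triangles its outer zones. Sites of V lie within the range of the others at most ranks, and 6 of the 32 triangles are under 500 bp.

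Some sites departed from this relation. The narrowest of the 30 strongest on V was 582 bp wide (8348915 to 8349496, q = 3.36e-46, rank 162), followed by the 678 bp site of rank 90 described above. A 1.26 kb site (12353792 to 12355052, q = 2.63e-45) had a neighbour 288 bp away. At the other extreme, 3 sites of 5 kb or more lay below the top 983. They were 6.22 kb wide at 3711964 to 3718181 (q = 0.00771, rank 1876), 5.25 kb at 14411345 to 14416594 (q = 4.33e-04) and 5.08 kb at 14828538 to 14833619 (q = 6.65e-04). The next widest weak ones, of 4.68 kb at 1871544 (q = 9.10e-04) and 4.14 kb at 1473415 (q = 4.07e-04), were both on the left arm. Sites of 5 kb or more below the top 983 numbered 0, 1, 2 and 2 on II, III, IV and X.

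The widest site of V, from 8414847 to 8426102, was 11.3 kb wide and had rank 210 (q = 5.11e-35). It was followed by the 9.98 kb site at 10711600 and by a 9.62 kb site from 16777566 to 16787186, whose q-value of 1.70e-06 put it at rank 869. The fourth, of 9.56 kb from 20771937 to 20781495 (q = 3.62e-39), lay near the right end of the span. An 8.87 kb site from 1149831 to 1158696 (q = 1.41e-30) lay near the left end. The others among the 10 widest were the 8.95, 8.54 and 7.54 kb sites already given and 2 sites in zone 4. These 2 were of 8.16 kb at 13783156 (q = 2.50e-17) and 7.88 kb at 13652085 (q = 3.29e-26). Of the 25 sites of 5 kb or more on V, 12 were in the top 197.

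Pooled over both ends, sites in the outer zones of V had a median strength close to that of the inner zones and a larger median width. In the outer zones the median width was 2525 bp (32 sites, 95% interval 1612 to 4138 bp), and in the inner zones it was 1259 bp (186 sites, 1048 to 1593 bp). The ratio of 2.01 rested on what counts as 1 site: with sites under 10 kb apart joined, the medians were 2710 and 2705 bp, a ratio of 1.00. Sites of 5 kb or more were 21.9% of the outer sites (7 of 32) and 9.68% of the inner ones (18 of 186). The median −log10 q was 6.91 outside and 7.02 inside. The 2 ends differed, with 4.32 in zone 1 (17 sites) and 9.36 in zone 5 (15 sites). Zones 2, 3 and 4 had 9.70, 6.89 and 4.15. Outside and inside, the same median was 4.80 and 4.69 on II and 8.97 and 5.25 on III. It was 5.78 and 4.81 on IV and 8.27 and 5.51 on X. On V, the top 197 held 15.6% of the outer sites (5 of 32, exact 95% interval 5.28 to 32.8%). Of the inner ones they held 13.4% (25 of 186, 8.89 to 19.2%). Each share lay inside the interval of the other, so no difference in this share was detectable at these numbers. Median widths outside and inside were 968 and 970 bp on II, 1696 and 1125 bp on III, 1127 and 1050 bp on IV, and 2534 and 1440 bp on X. The excess of width outside was thus 2.01 times on V, and it was not tested against II, III, IV or X.

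By covered bases the centre stood out less. When the span was cut into 3 equal parts instead, the central one, from 7029847 to 13936853, held 135 sites, or 61.9%, but 52.2% of the covered bases. Sites covered 3.70% of this part, against 1.64% of the left part and 1.75% of the right. By zone, the covered share was 1.17, 2.47, 4.05, 2.79 and 1.33% from left to right. Between zone 3 and the outer zones the number of sites per Mb thus differed more than the covered share did.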

How the data were processed

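The authors deposited 1 combined list of Pol II sites for the 4 samples. Its source field names the caller PeakSeq, and its coordinates are on WormBase WS180, per the file headers. Each line holds a deposited q-value (an adjusted p-value), which the authors computed from ChIP and input. It was identical in the score and attribute fields of all 1967 lines and reached at most 0.00996. The sources used here do not give the aligner, the caller's version, how replicates were combined, or the depth. A protocol text shared by all samples speaks of embryos and anti-GFP serum. The labels of stage and antibody were followed.

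Strength is −log10 q and serves for ranks within the list. Width is end minus start plus 1. Parts of the span were assigned by site midpoints. Intervals are exact (Clopper-Pearson), or from binomial order statistics for medians, at 95%, and cover counting error only. No test was run, since sites of 1 list are not replicates. The procedures were checked on simulated lists. Sites were named by rule: the 20 lowest q-values, the 10 widest, the 5 narrowest of the strongest 30, the 5 widest below the top 983, the flanks of the 10 longest gaps, the 5 largest runs, strong neighbours under 10 kb apart, and the strongest of each zone. The members, the lists and this rule were chosen with earlier results of these data known. Other sites named are neighbours of these. Alternatives were the top 983 alone, joining under 500 bp and under 10 kb, leaving out sites under 200 bp, covered bases, and a span from base 1. Python 3.11.15, NumPy 2.4.6, pandas 2.3.3, SciPy 1.17.1 and Matplotlib 3.10.9 were used.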

Additional observations from a re-analysis of the deposited data

How the results depend on the processing

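Of 39 alternative values for 9 results on chromosome V, 28 stayed within the counting interval or, where there is none, within 1.5 times, and 11 moved. A change of direction could be seen only in the rank correlation of width with strength and in the width ratio. The other results are counts, shares or lengths and have no direction. The correlation stayed positive, and the ratio did not reverse but fell to 1.00 in 1 alternative, which left no difference. In the top 983 sites alone, the number of sites fell from 218 to 129 and the longest empty stretch grew from 1.15 to 1.79 Mb, both because sites are left out. The median width rose from 1491 to 2408 bp, and the rank correlation of width with strength went from 0.60 to 0.38. The ratio of outer to inner median width went from 2.01 to 1.32. The strong neighbouring pairs went from 2 to 1, because the cut-off for a strong site was drawn anew in the shortened list. Both pairs (ranks 149 and 15, and 28 and 24) remain in the top 983. By the top 197 of the whole list their number thus stays at 2. Joining under 10 kb raised the median width to 2705 bp and left 0 strong pairs, both by construction, and gave a width ratio of 1.00. That ratio was also largely set by the joining, since 65 of the joined gaps lay in the inner zones and 2 in the outer ones. By covered bases the central of 3 parts held 52.2% in place of 61.9%. V held 19.7% of the sites of II, III, IV, V and X, and 22.2% of their covered bases. Joining at 500 bp, leaving out sites under 200 bp and the span from base 1 moved none of the results they were run for. Joining at either distance could not change the longest empty stretch, so those unchanged values among the 28 were fixed by construction. The alternatives for the width ratio were added after the data were seen. No paired analysis was possible because values per replicate are absent from the combined list, and for the same reason no replicate could be left out. Depth is unknown, which limits what can be said of weak sites and of empty stretches, where sites may lie below detection.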

Other observations

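No neighbouring sites on V lay closer than 202 bp, and the smallest gap in the whole list was 201 bp. Sites of V under 50 bp numbered 6, of which 2 were single bases, and 2 of the 6 had a neighbour under 1 kb away. One of these single-base sites, at 6363164, had a q-value of 4.10e-05 and rank 1068, a lower q-value than that of its 155 bp neighbour 373 bp away (q = 0.00845). A 3 bp site from 11183110 to 11183112 had nearly the same q-value, at rank 1067, and its nearest neighbour was 34.7 kb away. These 3 sites were singled out after their values were seen.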
